A study of Mus musculus with 37 samples.

Results

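S100 proteins and annexins were followed through 3 RNA sequencing experiments on murine jejunal organoids treated with vasoactive intestinal peptide (VIP), a neuropeptide of the enteric nervous system. The members are 10 genes taken by symbol from the deposited count tables, 6 S100 genes (S100a6, S100a10, S100a11, S100a13, S100a14 and S100a16) and 4 annexins (Anxa2, Anxa4, Anxa5 and Anxa13), of 31533 gene symbols in all. They were selected on family name with the VIP and irradiation fold changes of these same samples in view, and no threshold was applied. The fold changes below therefore describe these genes, and that they moved is no independent evidence about the family. All 10 passed the filter on low counts in every comparison. In the same tables stood 9 other S100 genes and 8 other annexins.

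S100 proteins are small EF-hand proteins that bind calcium as dimers and then attach to partner proteins, and annexins are proteins that dock onto membrane phospholipids when calcium rises. The families meet in complexes such as that of annexin A2 with S100A10, and both take part in membrane repair, vesicle transport and the shaping of the cortical cytoskeleton. In the gut epithelium several of them are known as genes of differentiated or injured cells.

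The first experiment compared whole organoids of C57Bl/6 mice, left untreated (3 mice) or given 100 nM VIP for 72 h (4 mice, 3 of them the same). The second used Lgr5-EGFP+ cells, sorted from organoids of Lgr5-EGFP-IRES-CreERT2 reporter mice, in which EGFP marks cells that use the Lgr5 promoter, with and without 100 nM VIP for 72 h (4 mice, each in both groups). The third used the same kind of sorted cells from 4 mice in 4 groups each: untreated or given 100 nM VIP for 48 h, each without irradiation or after 6 Gy. All sorted groups carry the reporter allele, controls included, and all organoids were grown from jejunal crypts. Unique molecular identifiers (UMIs) were counted at transcript 3′ ends, so that 1 captured molecule gives 1 count whatever the transcript length. Samples held 3722716 to 6330404 UMIs in whole organoids, 575242 to 1104126 in the sorted cells of the second experiment and 1075715 to 1876729 in the third. Levels are given as counts per 1000000 UMIs (CPM) on edgeR's TMM scale, set within each experiment, so gene levels are compared within experiments only.

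Marker lists were summed to check the labels, each on the scale of its own experiment. The 15 stem cell markers summed to 2465 to 5411 CPM in whole organoids, to 5049 to 7839 CPM in the sorted cells of the second experiment and to 3227 to 6766 CPM in those of the third. The 15 enterocyte markers summed to 12030.1 to 15649 CPM in whole organoids and to 848 to 3512 CPM in sorted cells. The 13 Paneth cell markers summed to 13398 to 26077 CPM in whole organoids and to 4245 to 30009.5 CPM in the sorted samples. The 14 mesenchymal and immune markers reached a sum of at most 78.0 CPM in any sample, and no UMI of Cd79a or Adgre1 was listed in any. Within whole organoids 1 library stood apart. Of the pair made from the VIP-treated culture of mouse 3, the second held S100a6 at 150.0 per 1000000 of its UMIs and the first at 1635, where the libraries of untreated organoids held 121 to 209. On this scale the second library lay within the range of the untreated libraries for every other member but Anxa5. S100a10 was at 452 (untreated 407 to 468) and S100a11 at 139 (untreated 116 to 193). Anxa5, at 40.9, was just above the untreated 31.1 to 40.0. Both libraries of the pair were summed, as were all such pairs, so the VIP-treated values of mouse 3 include the second. Values without it are given below for S100a6, Anxa4 and the interaction of VIP and compartment. No member lost its call in whole organoids without it.

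Of the 10 members, 7 had at least 1 promoter in RefSeq's GRCm38.p6 table, with 9 start sites between them. The promoters of S100a6 and S100a11, whose levels went together most closely, and of Anxa2 are printed here from 250 bases before the RefSeq start up to the first base that GENCODE M21 places inside the gene, on the plus strand, 5′ to 3′. Capitals mark the AP-1 element TGAGTCA.
S100a6, chr3:90612644-90612881: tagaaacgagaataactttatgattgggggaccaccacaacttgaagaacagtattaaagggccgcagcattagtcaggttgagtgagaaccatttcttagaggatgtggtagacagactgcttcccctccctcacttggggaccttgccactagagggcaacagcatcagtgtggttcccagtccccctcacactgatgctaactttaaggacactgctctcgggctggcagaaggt
S100a11, chr3:93520246-93520487: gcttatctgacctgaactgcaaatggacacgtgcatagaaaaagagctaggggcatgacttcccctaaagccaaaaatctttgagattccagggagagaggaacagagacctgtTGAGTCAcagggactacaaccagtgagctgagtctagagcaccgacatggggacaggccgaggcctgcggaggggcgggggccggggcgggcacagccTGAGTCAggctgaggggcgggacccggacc
Anxa2, chr9:69453433-69453619: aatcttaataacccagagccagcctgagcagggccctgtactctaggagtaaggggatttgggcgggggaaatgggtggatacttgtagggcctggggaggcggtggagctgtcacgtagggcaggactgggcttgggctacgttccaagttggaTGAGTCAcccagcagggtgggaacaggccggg
The motifs were searched on both strands of the full 250 bases before each start. TGAGTCA stood in the windows of S100a11, at -136 and -38, and of Anxa2, at -95, and in 4.45% of the 32536 distinct promoters. The cAMP response element TGACGTCA was in none of the 9 windows and in 1.56% of all promoters. Its shorter core TGACG, which also lies within TGACGTCA, was found for S100a13 and Anxa4 (17.9% of all promoters). The TEAD element GGAATG was in none of the 9 windows (12.6% of all promoters). A TATAAA element lay in the Anxa2 window at -17 (12.3%), and the GC box GGGCGG in those of S100a11, S100a16 and Anxa2 (33.0%). The S100a6 window, shown without capitals, held none of these 6 motifs. These matches are letters in a sequence, and no binding was measured.

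On GRCm38 all 6 S100 members lie on chromosome 3, between 90514435 and 93564643, a stretch of 3.05 Mb. S100a13 (90514435 to 90524581), S100a14 (90526856 to 90528837), S100a16 (90537254 to 90543151) and S100a6 (90612882 to 90624181) come first, and S100a11 (93520488 to 93526287) and S100a10 (93555080 to 93564643) follow at the far end. The genes S100a1, S100a3, S100a4, S100a5, S100a7a, S100a8 and S100a9 of the same cluster are no members. S100a1 starts only 42 bases from S100a13, on the other strand. The annexin members are scattered: Anxa5 lies on chromosome 3 (36448923 to 36475894), Anxa4 on chromosome 6 (86736840 to 86793584), Anxa2 on chromosome 9 (69453620 to 69491795) and Anxa13 on chromosome 15 (58341471 to 58389244). The pseudogenes Gm12854 and Gm7665 match 160 bases near the 3′ end of S100a11 with 98.1% and 97.5% identity, and S100a11 counts are uncertain to the extent that reads were shared with them. They held 29 and 8 UMIs in all whole organoid samples together. Anxa2 and Anxa4 share 98 and 75 exon bases with the genes Gm16144 and Gm44036 on the opposite strand.

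In whole organoids 9 of the 10 members rose with VIP, and Anxa4 was higher without passing the threshold. S100a6 rose 6.14-fold, S100a14 2.93-fold, S100a11 2.91-fold, Anxa5 2.75-fold and Anxa2 2.01-fold, with smaller rises of S100a13, S100a16, S100a10 and Anxa13. In edgeR's quasi-likelihood test with the mouse as a block, 9 of 10 members were higher past an adjusted p of 0.05, where 3.72% of the 12727 genes tested were higher past it. The contrast was known when the members were named, and nothing is read from this count. The median log2 fold change was 0.96 over the members and -0.00 over all genes tested. Together the members made up 0.306% ± 0.033 of the UMIs on this scale in untreated organoids (SD, n = 3) and 0.560% ± 0.050 after VIP (n = 4). In bulk samples more cells of a type that uses a gene and more RNA per cell cannot be told apart.

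S100a6 encodes calcyclin, first known as a growth-regulated protein, which binds several annexins. Its level was 131, 183 and 223 CPM in the untreated organoids of mice 1 to 3, and 919, 1240.3, 1081 and 714 CPM in the VIP-treated organoids of mice 1 to 4. Every treated sample lay above every untreated one by a wide margin, the lowest being that of mouse 4. The rise was 2.62 on the log2 scale (SE 0.11, edgeR adjusted p = 2.12e-08). Without the library that stood apart it was 2.83. Mouse 4 has no untreated sample, so that it enters the levels but not the fold changes.

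S100a11 encodes a binding partner of annexin A1. It stood at 149, 119 and 206 CPM without VIP and at 442, 466, 439 and 319 CPM with VIP. S100a14, an S100 protein whose calcium-binding loops have diverged, was lower, at 14.9, 22.3 and 18.9 CPM without and 53.2, 58.3, 51.2 and 37.2 CPM with VIP. In both genes the groups were well apart, and the VIP-treated sample of mouse 4 was again the lowest of its group. The log2 fold changes were 1.54 (SE 0.13, adjusted p = 9.48e-06) for S100a11 and 1.55 (SE 0.13, adjusted p = 7.65e-06) for S100a14 in edgeR.

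**Figure D1:**
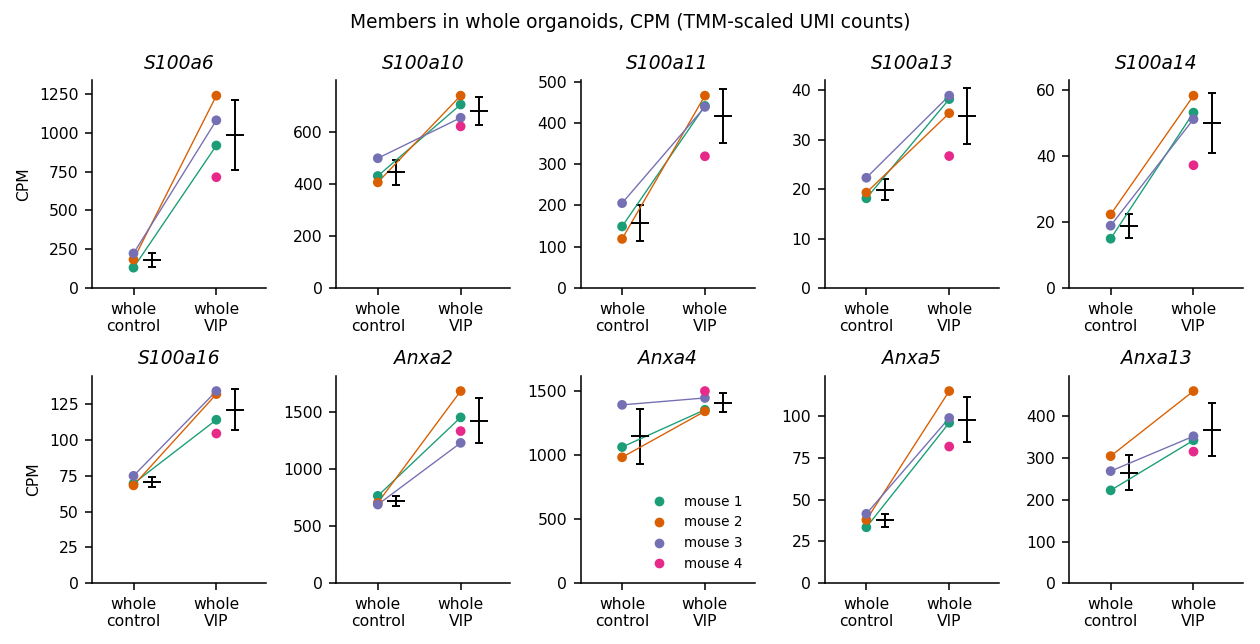
CPM of the 10 members (vertical axes, linear, from 0) in untreated and VIP-treated whole organoids; points are samples coloured by mouse, lines join samples of 1 mouse, and the cross and bar beside each group give the mean ± SD. S100a6 goes from 131 to 223 CPM without VIP to 714 to 1240.3 CPM with it, while the groups of Anxa4 overlap.

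The remaining S100 members moved less. S100a10, the light chain of the annexin A2 complex, which cannot bind calcium itself, was at 431, 406 and 499 CPM without VIP and at 706, 739.8, 655 and 621 CPM with it (log2 fold change 0.66, SE 0.10). S100a16 rose from 69.6, 68.3 and 75.0 CPM to 114, 132, 134 and 104 CPM (0.83, SE 0.10). S100a13, which takes part in the export of FGF1, rose from 18.2, 19.3 and 22.3 CPM to 38.2, 35.4, 38.9 and 26.7 CPM (0.92, SE 0.13). In all of them the lowest treated sample lay above the highest untreated one.

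Among the annexins, Anxa5, whose protein binds phosphatidylserine, rose from 33.4, 37.8 and 41.5 CPM to 95.8, 115, 98.7 and 81.6 CPM (log2 fold change 1.46, SE 0.11, edgeR adjusted p = 2.76e-06). Anxa2, which bridges membranes and actin together with S100A10, rose from 767, 706 and 691 CPM to 1456, 1687, 1232 and 1336 CPM (2.01-fold, SE 0.10 on the log2 scale, edgeR adjusted p = 2.62e-05). Anxa13, an annexin of the intestinal epithelium that carries a lipid anchor, rose from 223, 305 and 269 CPM to 343, 461, 352 and 316 CPM (0.54, SE 0.09, edgeR adjusted p = 0.00271). These 3 annexins had groups that did not overlap, narrowly so in Anxa13, whose call was lost without mouse 1 (log2 fold change 0.49). Anxa4, an annexin common in epithelia and the most abundant member in untreated organoids, differed least, with 1065, 985 and 1395 CPM without and 1357, 1345, 1449 and 1503 CPM with VIP. Its log2 fold change of 0.28 (SE 0.09) did not pass (edgeR adjusted p = 0.121), and it passed at 0.35 without the library that stood apart.

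In whole organoids 9 members had groups that did not overlap, all but Anxa4, where 5.63% of all genes did so in the higher direction. All 10 were higher in each of the 3 mice with both samples (19.5% of all genes). Anxa2 and S100a10, partners in one complex, had different rises: the ratio of Anxa2 to S100a10 UMIs was 1.64 ± 0.22 in untreated (SD, n = 3) and 2.09 ± 0.17 in VIP-treated organoids (SD, n = 4), with ranges of 1.39 to 1.78 and 1.88 to 2.28.

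Other genes of the families moved as well. Of the 8 other annexins 5 rose past the threshold and none fell. Anxa10, an annexin of gastric epithelium, rose from 16.3, 21.1 and 16.6 CPM to 103, 131, 133 and 62.6 CPM (log2 fold change 2.75, SE 0.12). Anxa1, a partner of S100A11 and a gene of the fetal-like regenerating epithelium, rose from 8.32, 12.1 and 14.02 CPM to 47.0, 60.8, 98.0 and 33.7 CPM (2.54, SE 0.14). Anxa3 rose from 32.2, 31.5 and 36.3 CPM to 151, 175, 153 and 106 CPM (2.26, SE 0.11). In these annexins, too, no treated sample lay as low as an untreated one. Anxa8, with 8 UMIs in the untreated and 70 in the treated samples, had a log2 fold change of 2.64 (SE 0.46), and Anxa7 one of 0.36 (SE 0.09). Of the 3 other S100 genes tested, S100a1, the neighbour of S100a13, rose by 0.46 on the log2 scale (SE 0.10, edgeR adjusted p = 0.0196). S100g, the calbindin of enterocytes, had a log2 fold change of -0.36 (SE 0.13) and S100a5 one of 0.90 (SE 0.45), neither past the threshold.

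**Figure D2:**
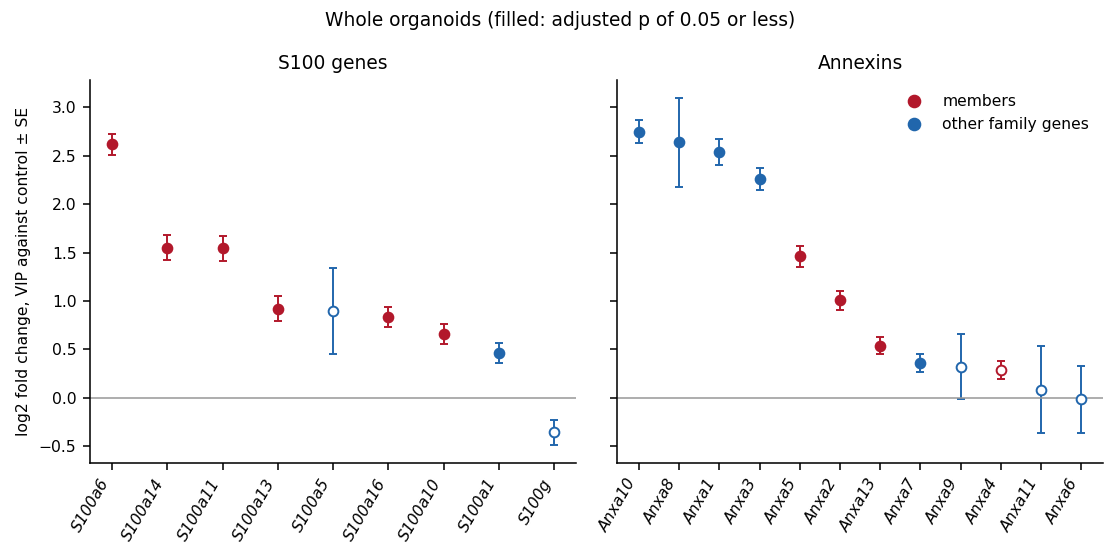
log2 fold change with VIP in whole organoids ± SE (vertical axis) for each S100 gene (left) and annexin (right) that passed the filter, with members in red and other family genes in blue; filled points are past an adjusted p of 0.05. Anxa10, Anxa8, Anxa1 and Anxa3 lie above the annexin members, and S100g is the lowest of all at -0.36.

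Among 17 tested partners of S100 proteins and annexins, 2 rose and 1 fell with VIP in whole organoids. Ahnak, a scaffold bound by the annexin A2 complex, had a log2 fold change of 1.502 (SE 0.12), and Plat, the tissue plasminogen activator that this complex binds, one of 1.20 (SE 0.22). Plgrkt, a plasminogen receptor, fell by 0.48 (SE 0.10). Of 18 membrane repair genes 5 rose and none fell, led by Lgals3, a galectin that marks damaged vesicles (2.60, SE 0.10), the calpain subunit Capn2 (1.93, SE 0.20) and the ferlin Myof (1.62, SE 0.22). Of 29 other EF-hand calcium sensors, calmodulins included, only Actn4, an actin cross-linker, passed (0.33, SE 0.09), and the list's median log2 fold change was 0.15. The fetal-like regenerative list, which holds Anxa1, rose in 9 of 11 genes, with Msln at 2.76 (SE 0.15) and Ly6a at 2.40 (SE 0.13). The goblet cell markers moved with these genes: 8 of 13 rose, and their sum ranged from 5529 to 7532 CPM without VIP and from 7934 to 9737 CPM with it. Of the 15 enterocyte markers 3 rose and 1 fell, of the 13 Paneth markers none passed, and of the 15 stem cell markers 1 fell. The part of these lists in the members' levels was not tested.

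In sorted Lgr5-EGFP+ cells after 72 h of VIP, S100a6 was the only member past the threshold, 3.21-fold higher. It stood at 88.9, 104, 101 and 70.1 CPM in the untreated and at 411, 309, 231 and 233 CPM in the VIP-treated cells of mice 1 to 4. Every mouse rose, and the groups were well apart. The log2 fold change was 1.68 (SE 0.16, edgeR adjusted p = 1.40e-07), and 0.0590% of the 6778 genes tested were higher past the threshold. S100a11 went the same way in 4 of 4 mice, from 129, 148, 165 and 133 CPM to 237, 237, 208 and 212 CPM, also without overlap. Its log2 fold change of 0.64 (SE 0.15) had an adjusted p of 0.0812 in edgeR, and passed at 0.74 without mouse 3. Groups that did not overlap in the higher direction were found for these 2 members and for 1.43% of all genes.

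The other 8 members did not pass in the sorted cells, and counts were low for several of them. Anxa2 was at 199.6, 324, 279 and 496 CPM without and 283, 412, 312 and 502 CPM with VIP, higher in each mouse (log2 fold change 0.25, SE 0.14). The mice differed from one another by more than VIP moved any of them. Anxa13 was lower with VIP in each mouse, at 82.2, 96.5, 106 and 137 CPM without and 72.9, 64.0, 80.3 and 87.2 CPM with it, in groups that overlapped (-0.45, SE 0.18, edgeR adjusted p = 0.884). Anxa4 had a log2 fold change of 0.15 (SE 0.13), S100a10 of 0.14 (SE 0.14), Anxa5 of 0.10 (SE 0.29) and S100a16 of -0.20 (SE 0.17). S100a13 (0.52, SE 0.43) rested on 1 to 23 UMIs per sample and S100a14 (0.17, SE 0.36) on 6 to 25. The median over the members was 0.16, against -0.00 over all genes. The ratio of Anxa2 to S100a10 UMIs was 0.728 ± 0.261 without and 0.771 ± 0.174 with VIP (SD, n = 4 each).

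**Figure D3:**
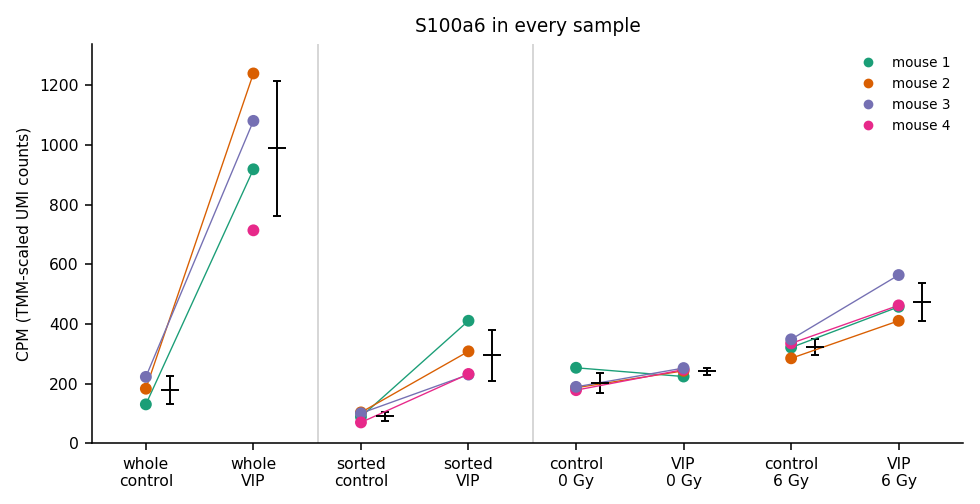
S100a6 in every sample, in CPM (vertical axis, linear, from 0), for whole organoids, sorted cells after 72 h and sorted cells of the irradiation experiment (0 or 6 Gy); points are samples coloured by mouse number, which is given within each experiment, lines join untreated and VIP-treated samples of 1 mouse, and crosses with bars are means ± SD. VIP-treated samples lie above untreated ones in whole organoids, sorted cells and irradiated cells, while the unirradiated groups of the third experiment, 178 to 253 and 224 to 252 CPM, overlap. CPM are scaled within each experiment.

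Whether VIP acted differently in whole organoids and in sorted cells was tested as an interaction, the VIP effect in sorted cells minus that in whole organoids. The difference was below 0 for all 10 members, with a median of -0.91 on the log2 scale against 0.01 over all genes, and 2 members passed. Among all 10186 genes 0.128% were lower past the threshold. The members were named with their rises in whole organoids known, and this difference subtracts those rises. Values below 0 follow in part from that choice, and nothing is read from their number. The 2 members past the threshold were S100a16 (-1.03, SE 0.21, edgeR adjusted p = 0.0463) and Anxa13 (-0.99, SE 0.19, edgeR adjusted p = 0.0357). For Anxa5 the difference was -1.37 (SE 0.28, adjusted p = 0.0579), for S100a14 -1.37 (SE 0.37, 0.243) and for S100a6 -0.93 (SE 0.22, 0.141), in the same edgeR fit. The calls depended on few mice. With the mice of 1 number left out of both experiments together, no call was left without those numbered 1, 2 or 4, and 6 members passed without those numbered 3. Without the library that stood apart 6 passed as well. The whole organoids came from C57Bl/6 mice and the sorted cells from other mice, of the reporter line, so the compartment cannot be told apart from the experiment. Lgals3 of the membrane repair list also differed (-2.28, SE 0.27), as did 3 of 13 goblet markers, all lower.

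The third experiment asked what VIP does to sorted cells with and without 6 Gy of irradiation. In unirradiated cells 0 of 10 members passed, where 0.742% of the 9976 genes did in either direction. An unadjusted edgeR p under 0.05 was found for 2 members and for 1237 of the 9976 genes. DESeq2 also called 0 members. S100a6 was at 253, 187, 189 and 178 CPM in the untreated and at 224, 243, 252 and 247 CPM in the VIP-treated cells of mice 1 to 4. It rose in 3 mice and was lower in mouse 1, whose untreated sample was the highest of its group by far. The log2 fold change was 0.26 (SE 0.09, edgeR adjusted p = 0.216), and it became 0.43 and passed without mouse 1. In the sorted cells of the second experiment the value was 1.68 after 72 h instead of 48 h; the times and mice differ, and the difference was not tested. Anxa13 was lower with VIP in each mouse and the groups did not overlap, with 119.8, 129, 117 and 111 CPM against 99.4, 106, 93.5 and 79.6 CPM (-0.34, SE 0.11, edgeR adjusted p = 0.172). S100a16 also had groups that did not overlap, by a margin far smaller than the spread of the treated samples, 124.7 to 128 against 105 to 124.6 CPM. Groups apart in the lower direction were found for 3.08% of all genes.

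In irradiated cells VIP raised S100a6 1.47-fold. It stood at 321, 285, 349 and 335 CPM without and at 458, 411, 564 and 463 CPM with VIP, higher in 4 of 4 mice and without overlap, as were 1.45% of all genes. The log2 fold change was 0.56 (SE 0.09, edgeR adjusted p = 0.00320), and 0.130% of the 9976 genes were higher past the threshold. The call was lost without mouse 3 (log2 fold change 0.51). S100a11 was higher in 4 of 4 mice too, from 242, 282, 244 and 284 CPM to 274, 289, 327 and 307 CPM, in groups that overlapped (0.18, SE 0.07, edgeR adjusted p = 0.695). The other members had log2 fold changes between -0.14 and 0.18. The VIP effect did not differ past the threshold between irradiated and unirradiated cells for any member or any of the 9976 genes in edgeR, with 634 genes and 1 member under an unadjusted p of 0.05. For that member, S100a6, the difference was 0.29 (SE 0.13, adjusted p = 0.741), which does not show that the effects were equal. DESeq2 called 0 members and 0 genes in this interaction as well.

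Markers of cell types moved with VIP in these sorted cells too. The stem cell marker sum went from 4186 to 5383 CPM to 6188 to 6766 CPM in unirradiated cells and from 3227 to 3815 CPM to 3884 to 4550 CPM in irradiated cells, without overlap, and 1 of 14 stem cell markers rose past the threshold in each. Enterocyte markers had a median log2 fold change of -0.55 in unirradiated cells and of -0.86 in irradiated cells, with 2 of 13 fallen and none risen in each. Paneth markers had medians of -0.40 and -0.52, with 0 of 11 past the threshold and 0 of 11 above 0 in both. Their part in the level of S100a6 was not tested.

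Irradiation itself raised several members in the same cells. Without VIP, S100a6 was 1.59-fold, Anxa5 1.52-fold, S100a11 1.39-fold, Anxa2 1.29-fold and S100a10 1.23-fold higher after 6 Gy. These 5 members passed the threshold, where 2.87% of all genes were higher past it. With VIP, 7 members passed (4.32% of all genes): S100a6 at 1.95-fold, Anxa5 at 1.54-fold, S100a14 at 1.44-fold, S100a11 at 1.43-fold, Anxa2 at 1.36-fold, S100a10 at 1.26-fold and S100a16 at 1.25-fold. Groups that did not overlap in the higher direction were found for 5 members without VIP (4.64% of all genes) and for 6 with it (6.26%). The VIP and the irradiation comparisons share samples, and their values are set side by side only.

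S100a6, given above in each sample, lay at 178 to 253 CPM before and 285 to 349 CPM after irradiation without VIP, and at 224 to 252 and 411 to 564 CPM with it. The log2 fold changes were 0.67 (SE 0.09, edgeR adjusted p = 4.40e-05) and 0.96 (SE 0.09, edgeR adjusted p = 9.95e-08). All 8 pairs of samples were higher after 6 Gy, and the group given both VIP and 6 Gy was the highest of the 4 without overlap.

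S100a11 was at 183, 193, 201 and 179.7 CPM in unirradiated untreated cells of mice 1 to 4 and at 242, 282, 244 and 284 CPM after 6 Gy (log2 fold change 0.48, SE 0.08). With VIP it went from 209, 207, 197 and 222 CPM to 274, 289, 327 and 307 CPM (0.52, SE 0.07). Irradiated samples were above unirradiated ones in every mouse, without overlap. Anxa5 went from 69.6, 63.2, 71.5 and 49.2 CPM to 74.5, 92.9, 110.1 and 113 CPM without VIP (0.60, SE 0.12), and from 61.2, 60.2, 68.2 and 64.4 CPM to 96.2, 85.2, 119.8 and 91.4 CPM with it (0.63, SE 0.12). Mouse 1 moved least of the mice without VIP, from 69.6 to 74.5 CPM, and mouse 4 most.

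Anxa2 was at 427, 454, 427 and 396 CPM before and 582, 509, 499 and 624 CPM after 6 Gy without VIP (log2 fold change 0.37, SE 0.09), and at 556, 454, 382 and 415 CPM before and 645, 500.1, 659 and 639 CPM after it with VIP (0.44, SE 0.09). Its partner S100a10 was at 433, 359, 365 and 325 CPM before and 464, 425, 458 and 472 CPM after without VIP (0.30, SE 0.07), and at 360.2, 374, 378 and 350.4 CPM before and 494, 439.6, 452 and 463 CPM after with it (0.34, SE 0.07). Both genes were higher in each of the 8 pairs, and the untreated groups of S100a10 and the VIP-treated groups of Anxa2 overlapped. The ratio of Anxa2 to S100a10 UMIs had means between 1.16 and 1.32 in the 4 groups, with SDs of 0.10 to 0.22 (n = 4 each), and their ranges overlapped.

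**Figure D4:**
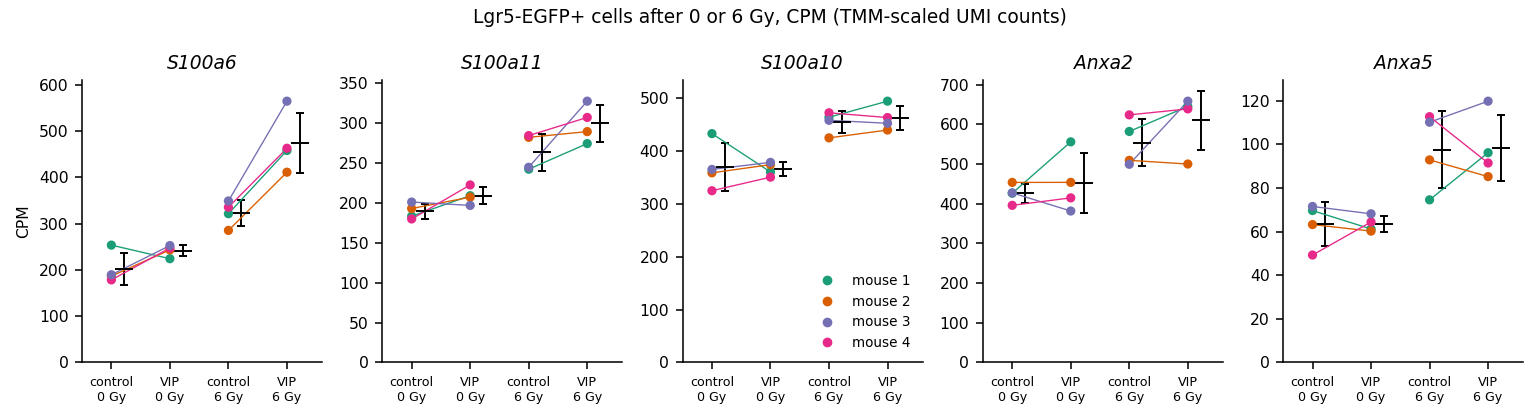
CPM of the 5 members past the threshold after irradiation of untreated cells (vertical axes, linear, from 0) in the 4 groups of sorted Lgr5-EGFP+ cells, with points coloured by mouse, lines joining untreated and VIP-treated samples of 1 mouse at the same dose, and crosses with bars for means ± SD. All 5 genes are higher at 6 Gy than at 0 Gy, and only S100a6 also parts VIP from control at 6 Gy.

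The calls after irradiation without VIP rested partly on mouse 4: without it only S100a6 and S100a11 passed, so that 2 of the 5 calls remained. S100a10 also lost its call without mouse 3. S100a16 was higher in each mouse in both comparisons (0.25, SE 0.08, adjusted p = 0.0693 without VIP and 0.33, SE 0.08, adjusted p = 0.00853 with VIP, in edgeR), from 105 to 128 CPM in the unirradiated to 133 to 157 CPM in the irradiated samples. S100a14 with VIP (0.53, SE 0.15, edgeR adjusted p = 0.0343) lost its call whichever mouse was left out, S100a16 lost it without mouse 4 and Anxa2 without mouse 3. Without single mice 5 to 7 members passed with VIP. As S100a14 never did, a count of 7 includes a member that had no call with all mice. S100a13 had values of 0.26 (SE 0.19) without and 0.60 (SE 0.20) with VIP, neither past the threshold. Anxa4 and Anxa13 did not go up: Anxa4 stayed between 1108 and 1377 CPM in all 16 samples with log2 fold changes of -0.02 and -0.07, and Anxa13 had -0.30 (SE 0.11) and -0.11 (SE 0.12).

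Of 4 other annexins tested in this experiment, the same 2 passed in both irradiation comparisons and none fell. Anxa3 had log2 fold changes of 0.99 (SE 0.12) without VIP and 1.17 (SE 0.12) with it, and Anxa1 of 0.91 (SE 0.14) and 1.37 (SE 0.14). None of the 2 other S100 genes tested passed. Of the 15 partners tested, Mdm2, the p53 antagonist, rose in both comparisons (1.28, SE 0.16, and 1.76, SE 0.17), as did Ahnak (1.43, SE 0.22, and 1.28, SE 0.23). Myh9, a non-muscle myosin bound by several S100 proteins, rose with VIP (0.68, SE 0.11), and in all 2 rose and 1 fell without VIP and 3 rose and 1 fell with it. Plgrkt fell by 0.41 (SE 0.09) after irradiation without VIP, and had already fallen with VIP by 0.84 (SE 0.09) in unirradiated cells and by 0.78 (SE 0.15) in the sorted cells of the second experiment. Membrane repair genes passed in 0 of 15 without and 2 of 15 with VIP, Lgals3 (1.13, SE 0.18) and Pdcd6ip (0.81, SE 0.18). Of 29 other calcium sensors only Stim1 rose without VIP (1.07, SE 0.24), and only Calm3 moved with it, where it fell by 0.42 (SE 0.08). The fetal-like list rose in 6 of 6 tested genes without and 5 of 6 with VIP, Areg among them at 1.29 (SE 0.16) and 1.32 (SE 0.17). Markers of other cell types moved with irradiation in the sorted cells. Paneth markers rose in 11 of 11 without VIP, their sum going from 10686 to 15763 CPM to 15634 to 30009.5 CPM, enteroendocrine markers in 8 of 15, goblet markers in 6 of 13 and enterocyte markers in 5 of 13, while 3 of 14 stem cell markers fell. With VIP, Paneth markers rose in 10 of 11, from a sum of 9182 to 10383 CPM to 15682 to 18064 CPM, and enteroendocrine markers in 12 of 15, goblet markers rose in 4 and fell in 2 of 13, no enterocyte marker of 13 passed, and 4 of 14 stem cell markers fell. Their part in the members' levels was not tested.

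**Figure D5:**
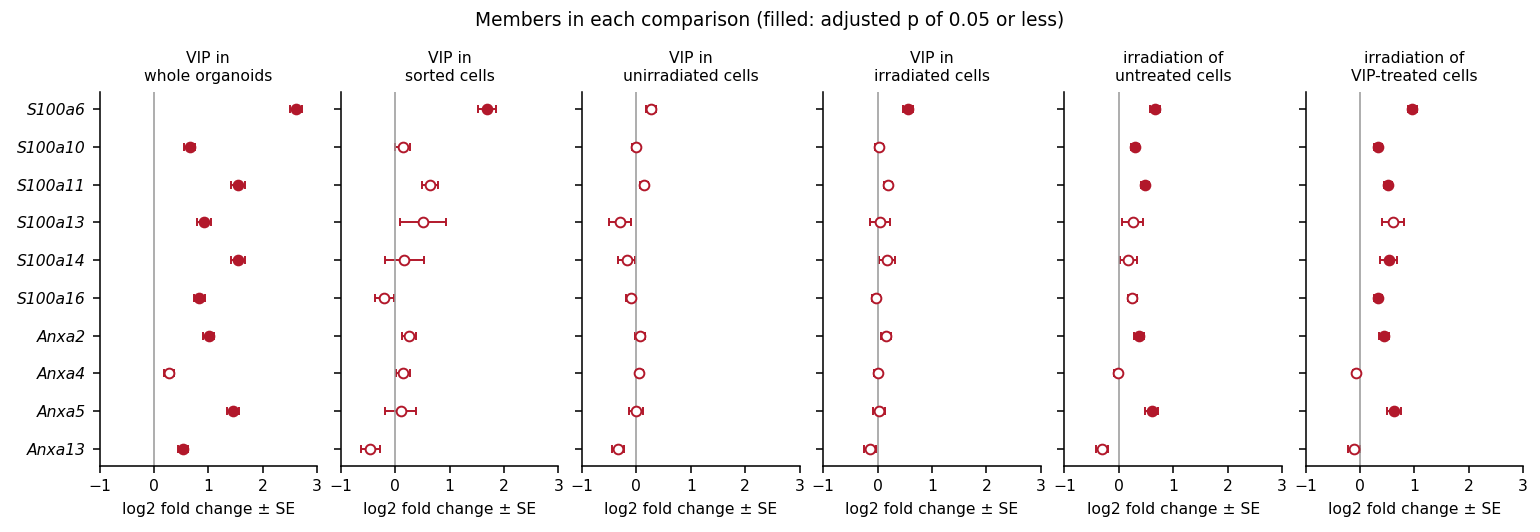
log2 fold change ± SE (horizontal axes) of the 10 members in the 4 VIP and the 2 irradiation comparisons; filled points are past an adjusted p of 0.05 in edgeR. The filled points number 9, 1, 0, 1, 5 and 7 from left to right, S100a6 being filled in all but VIP in unirradiated cells, and Anxa4 in none.

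Across all VIP pairs S100a6 was higher in 14 of 15, S100a11 in 14 of 15 and Anxa2 in 13 of 15, and across the irradiation pairs each of them in 8 of 8. Each mouse of the third experiment enters more than once, so the pairs are not independent. The other members were higher with VIP in 4 (Anxa13) to 11 (S100a10 and Anxa4) of 15. With irradiation S100a10, S100a16 and Anxa5 were also higher in 8 of 8, S100a13 and S100a14 in 6, Anxa4 in 3 and Anxa13 in 2. Anxa13 went the other way in sorted cells, lower with VIP in 11 of 12 pairs, while it was higher in 3 of 3 in whole organoids. It passed in no VIP comparison of sorted cells (edgeR adjusted p of 0.884, 0.172 and 0.964). In the same 12 pairs S100a16 was lower with VIP in 9, S100a14 in 8 and S100a13 and Anxa5 in 7 each.

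The correlation of the members' levels within mice was highest in whole organoids, where it restates their shared rise with VIP. Over 30 samples of mice with more than 1 sample, the Pearson r of log2 CPM deviations from the mouse mean was positive in 43 of 45 pairs of members, with a median of 0.65. The highest were S100a6 with S100a11 (0.96), S100a11 with Anxa2 (0.94) and S100a10 with S100a11 (0.89), and the lowest was S100a6 with Anxa13 (-0.05). The samples share libraries, treatments and experiments, so these values describe the data and no p is given. Within the experiments 45 of 45 pairs were positive in whole organoids (median 0.99, 6 samples), 29 of 45 in the sorted cells of the second (median 0.27, 8 samples) and 30 of 45 in those of the third (median 0.62, 16 samples). In the first and second experiments each mouse used here gave 1 untreated and 1 VIP-treated sample, so its deviations mirror each other. There r only restates how the members moved with VIP. As all members rose in every such mouse of the whole organoids, r had to be positive there. S100a6 and S100a11 stayed close in both sorted experiments (0.99 and 0.93), whereas S100a6 and Anxa13 ran against each other there (-0.86 and -0.62).

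Of 6730 genes measured in all 3 experiments, the 3 most like S100a6 by this measure were S100a11 (r = 0.96), Krt23, a type I keratin (0.92), and Ggh, the gamma-glutamyl hydrolase (0.91). Krt23 was at 45.2 ± 8.92 CPM in untreated (SD, n = 3) and 93.8 ± 23.7 CPM in VIP-treated whole organoids (SD, n = 4), and Ggh at 38.1 ± 6.08 and 112.9 ± 23.8 CPM. Among the members Anxa2 ranked 9, S100a10 ranked 19 and S100a14 ranked 29, while Anxa13 ranked 3561.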

How the data were processed

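The authors isolated RNA from organoids or sorted cells, made 3′ libraries with barcodes and UMIs, and deposited the UMI counts of each gene in each library without normalization, on GRCm38 per the labels. Whether counting used strand is not given in the sources used here. The 37 libraries gave 31 samples once repeat libraries of the same culture were added up. Counts were tested with edgeR 4.0.16 in R 4.3.3: TMM, filterByExpr by group, quasi-likelihood fits across all genes with the mouse as a block, Benjamini-Hochberg adjustment over all genes and a threshold of 0.05. The irradiation experiment was fitted as 1 model of 16 samples. The fit was tested on counts simulated without differences between mice, so that run cannot show how it handles them. Log2 CPM used a prior count of 2. Gene positions and the copies found by blastn 2.17.0 come from GENCODE M21.

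The labels name the organoid line of each sample by a mouse identifier, and samples of 1 identifier were paired. Across genes, deviations from the group means correlated at 0.28 to 0.66 for samples of the same mouse in whole organoids, and at -0.03 to 0.21 in sorted cells. For samples of different mice the values were -0.57 to 0.36 in whole organoids and -0.14 to 0.15 in sorted cells, so the ranges overlapped. Apart from the mouse the labels name no separate cultures. With the mouse as a block, p-values rest on the spread that is left once level differences between mice are removed.

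The members, gene lists and comparisons were chosen with earlier results of these data known. Named genes are the 10 members and other S100 genes and annexins past the threshold. Added to these are at most 3 genes per list and comparison by smallest p, and the 3 genes most like S100a6. S100g, S100a5, S100a7a and S100a4, and Lgals3 in the interaction, were named beside them. Alternatives were DESeq2 1.42.0, RLE factors, library size alone, looser and stricter filters, no block, leaving out each mouse, fewer technical libraries and fits of only the 8 samples compared. With 1 count per molecule, depth limits the low genes, S100a13 and S100a14 above all.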

Additional observations from a re-analysis of the deposited data

Results flagged for a closer look

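Each member was examined in each group of 4 samples, 70 groups in all, for a sample far from the others, and 3 were found; chance gives about 1 in 20. S100a6 in untreated unirradiated cells was 253 CPM in mouse 1, against 178 to 189 CPM in the other mice. Anxa2 in irradiated VIP-treated cells was 500.1 CPM in mouse 2, against 639 to 659 CPM. Anxa4 in the same group was 1117 CPM in the same mouse, against 1280.2 to 1309 CPM.

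The effect of VIP differed between sorted cells and whole organoids by the test of the interaction for Anxa13 (log2 difference -0.99) and S100a16 (-1.03). The members were named with the rises in whole organoids known, which this difference subtracts. The following differences in direction were not tested. In whole organoids Anxa13 was higher in every mouse (mean within-mouse log2 difference 0.54), and it was lower in every mouse in unirradiated cells of the irradiation experiment (-0.33) and in the sorted cells after 72 h (-0.44). S100a13 was higher in every mouse in whole organoids (0.90) and lower in every mouse in unirradiated cells (-0.27), and so was S100a16 (0.83 and -0.10). In unirradiated cells S100a13 was at -0.78 in mouse 1 and at -0.17 to -0.04 in the others, and S100a16 at -0.28 to -0.0014. Of all genes, 19.5% were higher in every mouse in whole organoids and 10.5% lower in every mouse in unirradiated cells.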

How the results depend on the processing

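Without the mouse block, 7 of 10 members passed with VIP in whole organoids in place of 9 (S100a13 and Anxa13 were lost), none passed in the interaction with the compartment in place of 2 (0), and the counts of the other 6 comparisons were unchanged by this block. In the sorted cells 2 members passed in place of 1 with library size alone and with at least 10 counts in every sample, and 1 to 2 without single mice. Leaving out 1 mouse gave 0 to 1 members in unirradiated cells, 0 to 1 in irradiated cells and 2 to 5 after irradiation without VIP. In the interaction with the compartment 1 member passed with RLE factors or library size alone, 6 with all genes with any count, 6 with the first technical libraries only, 6 without the second library of VIP-treated mouse 3, and 0 to 6 without the mice of 1 number, left out of both experiments together. Leaving out 1 mouse gave 5 to 7 members after irradiation with VIP, S100a14 never among them. With DESeq2 and with any count, S100a14 and S100a16 were both lost there. With VIP in whole organoids between 7 and 10 members passed under all alternatives run, and S100a6 passed in each. Counts over all genes moved more than those of the members: 614 genes passed there, 300 with DESeq2, 979 with any count, 99 without the block, 1261 without that second library and 363 to 1668 without single mice. The ranges over all alternatives run were 1 to 17 genes around 6 in sorted cells, 32 to 184 around 74 in unirradiated cells, 5 to 110 around 22 in irradiated cells, 176 to 643 around 445 after irradiation without VIP, 426 to 872 around 776 with VIP, 0 to 34 around 0 in the interaction with irradiation and 0 to 57 around 15 in that with the compartment. The cause was not tested.

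Directions turned only for members that did not pass in the comparison concerned. With VIP in unirradiated cells these were Anxa5 (library size alone 0.00810, no block 0.000119, only the 8 samples compared 0.00302, without single mice -0.11 to 0.0712), S100a10 (without single mice -0.0500 to 0.0772) and Anxa2 (-0.0290 to 0.15). With VIP in irradiated cells they were Anxa4 (library size alone 0.0220, any count 0.000581, only the 8 samples 0.00117, without single mice -0.00880 to 0.0114), S100a13 (without single mice -0.0699 to 0.17), Anxa5 (-0.0870 to 0.13) and Anxa13 (-0.19 to 0.00916). In sorted cells they were S100a14 (-0.19 to 0.26) and Anxa5 (-0.11 to 0.34), and after irradiation without VIP Anxa4 (at least 10 counts 0.00120, without single mice -0.0509 to 0.0514). In the interaction with irradiation they were S100a10 (-0.0716 to 0.0933), S100a11 (-0.0866 to 0.12), Anxa2 (-0.0863 to 0.18) and Anxa5 (-0.16 to 0.24), and in that with the compartment S100a13 (-0.77 to 0.37), all without single mice or, for the compartment, the mice of 1 number. DESeq2 gave no adjusted p for S100a13 with VIP in unirradiated and irradiated cells or for S100a14 in unirradiated cells.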

Other observations

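Among the S100 genes left out of the tests for low counts, S100a7a held 0, 0 and 1 UMIs in the untreated and 7, 16, 6 and 4 UMIs in the VIP-treated whole organoids of mice 1 to 4. S100a4, which lies between S100a16 and S100a6, held 0 to 3 UMIs per untreated and 2 to 10 per VIP-treated whole organoid sample, while S100a6 held 3878 to 7850 after VIP. S100a7a and S100a4 were named after their values were seen. These counts are not scaled to depth, which was 3722716 to 5772166 UMIs in untreated and 5476614 to 6330404 in VIP-treated samples.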
